A study of Mus musculus with 8 samples.

Results

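The Clca genes form a family of chloride channel accessory genes, and their 7 probe sets on the array were found by gene symbol: Clca1, Clca2, Clca3a1, Clca3a2, Clca3b, Clca4a and Clca4b, with 1 probe set each among 22206 (19505 named genes). The symbol alone decides membership, but the family itself was chosen by its knockout and wild-type log2 values in these samples, so those values are given as a description, with no p-value for the 7 genes, and counts of their calls support nothing. RNA of homogenised duodenum, labelled as small intestine, was measured on Clariom S mouse arrays, which are 1-colour arrays with mostly 1 probe set per gene. The 4 knockout mice lacked IκBα, the NF-κB inhibitor encoded by Nfkbia, through a floxed allele, cut in the promoter and first exons by Cre recombinase driven by the villin promoter, which is active in intestinal epithelium. They were 8, 11, 8 and 9 weeks old in sibling pairs 1 to 4, untreated, and 2 were male and 2 female. The 4 wild-type mice were their littermates of the same ages, also untreated, with 2 males and 2 females. By label, siblings share their sex in pairs 1 and 2, while pair 3 joins a male knockout to a female and pair 4 a female knockout to a male. The sources used here do not say whether these controls carried the floxed allele or Cre. In RNA of whole tissue, fewer cells of a type and less RNA per cell cannot be told apart.

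Clca proteins were first taken for calcium-activated chloride channels. They are now known as secreted or membrane-attached proteins that cleave themselves, and human CLCA1 raises the chloride current through the channel encoded by ANO1. Clca1, also called gob-5, is secreted by goblet cells into intestinal mucus, and Clca4a protein lies on enterocytes. In airway epithelium Clca1 is a known target of the type 2 cytokine IL-13.

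Values are log2 expression, and differences are knockout minus wild type within a sibling pair, with the SD over 4 pairs after ±. The deposited values hold little difference between pairs: the 4 pair means of a probe set had a median SD of 0.0175, and the scatter of its pair differences would give 0.0897. Similar values of replicates in a group therefore do not show how much mice vary. The differences were also more alike in pairs 1 and 2 (r = 0.682 across probe sets) and in pairs 3 and 4 (r = 0.673) than otherwise (0.346 to 0.420). The limma fit with the pair as a block, which takes the pairs as independent, called 702 probe sets higher and 599 lower in knockouts at an adjusted p under 0.05, which is 5.86% of all probe sets. At an unadjusted p under 0.05 that fit had 6098 of 22206 probe sets, either way. Counts of genes at an unadjusted p below are to be read beside this. Nfkbia, the deleted gene, had 6.82, 6.65, 7.72 and 6.65 in the knockouts of pairs 1 to 4, against 9.75, 9.91, 9.01 and 9.78 in wild types. It fell by 2.65 ± 0.918 on the log2 scale (limma adjusted p = 0.0130), least in pair 3. Its adjusted p was 0.0545, 0.0582 and 0.0512 without pair 1, 2 or 4.

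All 7 genes lie in 1 cluster on mouse chromosome 3 (GRCm38.p6, chr3:144729677-145099443, from the RefSeq table). In chromosome order they run Clca3a1, Clca3a2, Clca3b, Clca4b, Clca4a, Clca1 and Clca2. The first 3 of them were about 2-fold to 3-fold higher in every knockout than in its sibling, Clca4a was lower in every knockout with most of its difference in pair 4, and Clca1, Clca4b and Clca2 had mean differences within 0.1 of 0. The family had a median difference of 0.088, and the median over all probe sets was −0.015.

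**Figure D1:**
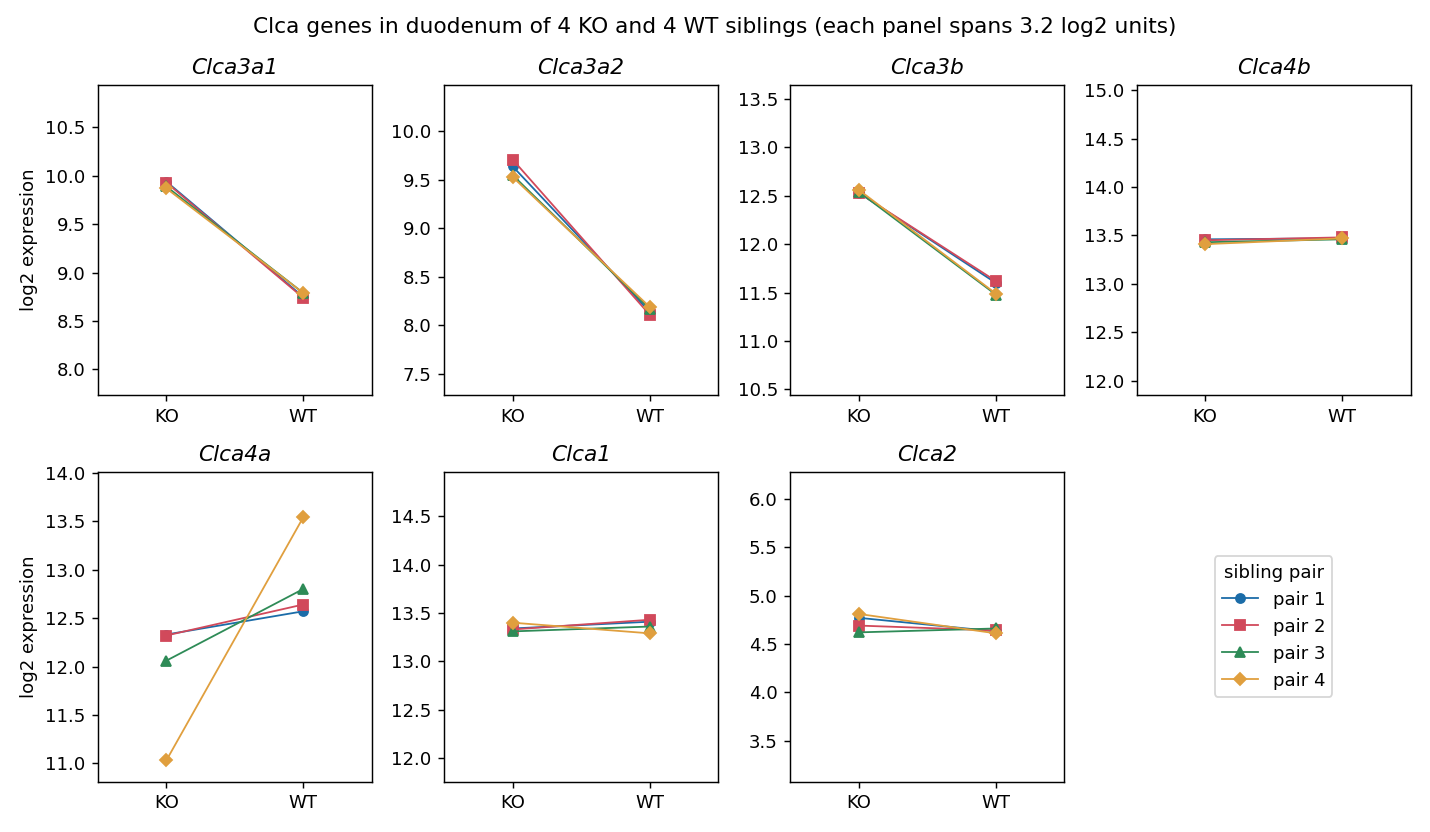
Log2 expression of the 7 Clca genes, 1 panel per gene in chromosome order, with each knockout (KO, left) joined to its wild-type sibling (WT, right) and each panel spanning 3.2 log2 units. Clca3a1, Clca3a2 and Clca3b lie higher in all 4 KO mice, and the lines of Clca4a fan out, with pair 4 the steepest.

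The genes named Clca3 stand side by side at chr3:144729677-144849302, a stretch of 119.6 kb. Clca3a1, whose product is known from lymphatic endothelium, lies at chr3:144729677-144760977. It had 9.94, 9.93, 9.89 and 9.87 in the knockouts of pairs 1 to 4, against 8.75, 8.74, 8.79 and 8.79 in their wild-type siblings. The groups did not overlap, and the difference of 1.14 ± 0.058 corresponds to a ratio of 2.20. Clca3a2, its neighbour at chr3:144780581-144819623, had 9.64, 9.71, 9.55 and 9.53 in knockouts, against 8.14, 8.11, 8.17 and 8.19 in wild types. This was the largest difference of the family, 1.46 ± 0.118 or a ratio of 2.74, and 48 of the other probe sets on the array were higher in knockouts by more. Clca3b, at chr3:144822623-144849302, had 12.53, 12.53, 12.54 and 12.56 in knockouts, against 11.60, 11.62, 11.48 and 11.49 in wild types. Its difference was 0.99 ± 0.084, a ratio of 1.99, so it fell just short of the log2 difference of 1 that the other Clca3 genes passed.

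The groups did not overlap for Clca3a1, Clca3a2 and Clca3b, with knockouts higher, which also held for 15.9% of all probe sets. A mean difference of at least 1 was seen for 2 of the 7 members and for 0.549% of all probe sets. The limma fit called 3 of the 7 members higher, these same genes, and 0 lower, while 3.16% of all probe sets were called higher, 2.7% lower and 5.86% either way. As the family was chosen with this contrast known, nothing is read from these counts. Over the 12 within-pair differences of the Clca3 genes the lowest was 0.91 and the highest 1.60. Clca3a1 and Clca3a2 differed more in pairs 1 and 2 than in pairs 3 and 4, and Clca3b differed less in pairs 1 and 2.

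The upstream sequence of Clca3a1 is shown as that of the gene at the outer end of the higher stretch. RefSeq promoter sequences (GRCm38.p6) matched 5 of the 7 members. The 250 bases before the annotated start of Clca3a1 are printed 5′ to 3′ on the minus strand, on which it is transcribed, in lower case throughout as no motif is marked. Their GC content is 48.8%.
Clca3a1 (chr3:144760978-144761227): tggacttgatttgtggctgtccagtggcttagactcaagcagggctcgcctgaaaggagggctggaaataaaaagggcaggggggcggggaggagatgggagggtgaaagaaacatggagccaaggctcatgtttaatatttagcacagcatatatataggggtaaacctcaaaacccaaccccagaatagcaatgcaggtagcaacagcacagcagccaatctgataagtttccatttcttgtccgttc

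The probe sequences were not analysed here, so whether the probe sets of the neighbouring Clca3 genes tell their transcripts apart was not tested.

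Clca1 and Clca4b were among the brightest probe sets. Clca1, the goblet cell member at chr3:145004537-145032776, had 13.34, 13.33, 13.31 and 13.40 in knockouts, against 13.41, 13.43, 13.36 and 13.29 in wild types. The groups overlapped, with a difference of −0.028 ± 0.094, and the knockout was lower in 3 of 4 pairs. Clca4b, at chr3:144910921-144932529, had 13.46, 13.45, 13.43 and 13.41 in knockouts, against 13.47, 13.48, 13.46 and 13.47 in wild types. It was lower in each knockout than in its sibling, by a mean difference of −0.033 ± 0.021. Of all probe sets, 0.207% had a higher mean than Clca1 and 0.167% a higher mean than Clca4b. Whether signal near the top of the array's range narrows their differences was not tested.

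Clca2, known in human and mouse from stratified epithelia, lies last in the cluster at chr3:145070260-145099443. It had 4.77, 4.69, 4.62 and 4.81 in knockouts, against 4.63, 4.64, 4.66 and 4.61 in wild types, a difference of 0.088 ± 0.105 in overlapping groups. All 8 values lay under 5.65, a background level taken as the 95th percentile over 1091 probe sets of olfactory receptors. The other 6 members were above it on all 8 arrays. With arrays centred on housekeeping genes the median over all probe sets shifted to −0.18, and the difference of Clca2 was −0.077. Of 11 squamous epithelium markers measured limma called 0 (1 at an unadjusted p under 0.05), and 8 lay under background on all arrays, among them Trp63 and Krt5. Krt14 and Krt15 lay above it on all 8 arrays, and Sprr1b on 5. The summed level of the 11 markers spanned 8.72 to 8.83 in knockouts and 8.74 to 8.87 in wild types.

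Clca4a, at chr3:144952486-144975045, had the lowest mean difference of the 7 members and the widest spread over pairs. It had 12.33, 12.32, 12.06 and 11.03 in knockouts, against 12.57, 12.64, 12.80 and 13.54 in wild types. The groups did not overlap, which held with knockouts lower for 17.2% of all probe sets. The differences were −0.24, −0.32, −0.74 and −2.51 in pairs 1 to 4, with a mean of −0.95 ± 1.06. Pair 4 decided its size: the mean was −0.43 without it, −0.28 in pairs 1 and 2 alone and −1.62 in pairs 3 and 4 alone. The knockout of pair 4 also had the lowest RNA integrity number, 7.0 in a range of 7.0 to 8.7. Its wild-type sibling lay apart as well, at 13.54 against 12.57 to 12.80. As pair means are alike in the deposited values, which sibling of pair 4 departed cannot be told. With RNA integrity added to the fit the Clca4a difference was −1.09. Enterocyte markers, of which 23 were measured, had median differences of −0.39, −0.23, −0.15 and −0.45 in pairs 1 to 4, and their summed level spanned 17.2 to 17.4 in knockouts and 17.5 to 17.7 in wild types. In pair 4 single enterocyte markers, named after their values were seen, ran from −4.82 (Lct) to 0.30 (Alpi). Mep1a had −2.79 and Fabp2 −2.05 there, so a large fall in pair 4 was not particular to Clca4a. Pancreatic acinar markers, of which 12 were measured and limma called 0 (6 lower at an unadjusted p under 0.05), had median differences of −0.47, 0.005, −3.98 and −3.32 in pairs 1 to 4, and their summed level spanned 9.64 to 11.4 in knockouts and 11.2 to 13.9 in wild types. Among the other settings, 7 acinar markers were called lower in pairs 3 and 4 alone, 6 without the pair block and 5 after housekeeping centring. The part of enterocytes or acinar cells in the Clca4a difference was not tested.

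**Figure D2:**
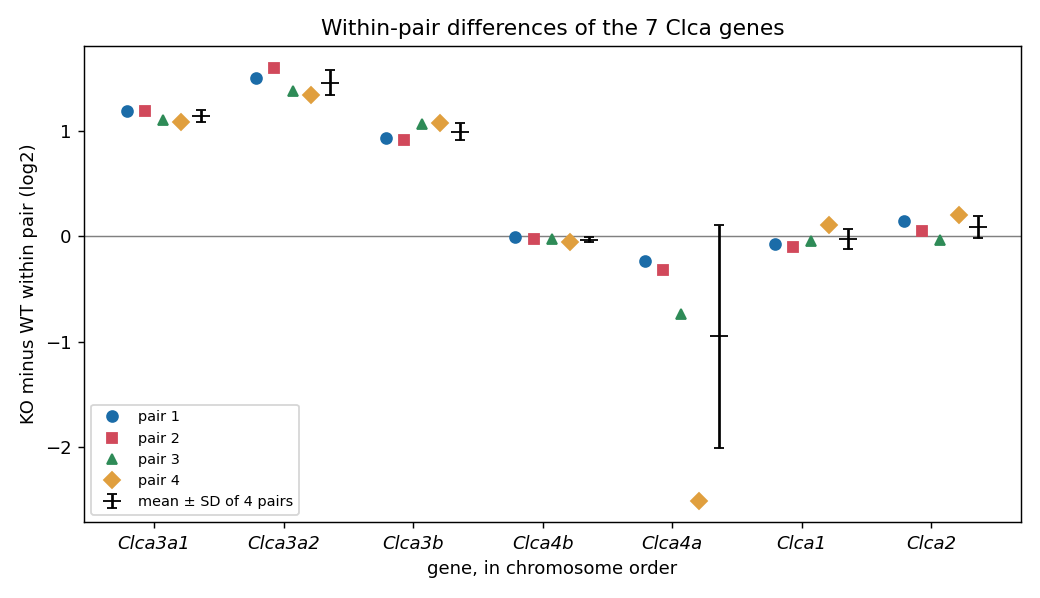
Knockout (KO) minus wild type (WT) log2 difference of each Clca gene in each sibling pair, with the mean ± SD of 4 pairs in black to the right. The Clca3 genes lie between 0.91 and 1.60 in every pair, and Clca4a runs from −0.24 to −2.51.

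The boundary of the higher genes was examined with the neighbours of the cluster, a comparison chosen after the values were seen. Within 1000 kb on either side, 14 other named genes were measured, and limma called 0 higher and 1 lower (0 and 3 at an unadjusted p under 0.05). The gene called was 2410004B18Rik (−0.50 ± 0.110, limma adjusted p = 0.0218), 838.6 kb past Clca2. That call was lost without any 1 of the 4 pairs and with sex or RNA integrity added. Without the pair block 1 neighbour was called higher and 6 lower, and after housekeeping centring 0 and 6. The nearest gene on the Clca3a1 side is Sh3glb1, 9.3 kb away. It had a difference of −0.040 ± 0.194 (limma adjusted p = 0.812). On the other side Odf2l, 19.1 kb past Clca2, had a difference of 0.13 ± 0.190 (limma adjusted p = 0.392). Over the 14 neighbours the median of the mean differences was −0.07 and the highest 0.20, that of Bcl10, against 0.99 to 1.46 for the Clca3 genes. In single pairs Ddah1 reached 0.92, in pair 3, which lies above the lowest single value of the Clca3 genes. Mcoln3, the lowest at −1.38 ± 0.940, did not pass (limma adjusted p = 0.0582). Between Clca3b and Clca4b the RefSeq table places the pseudogene Clca4c-ps, which has no named probe set here.

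**Figure D3:**
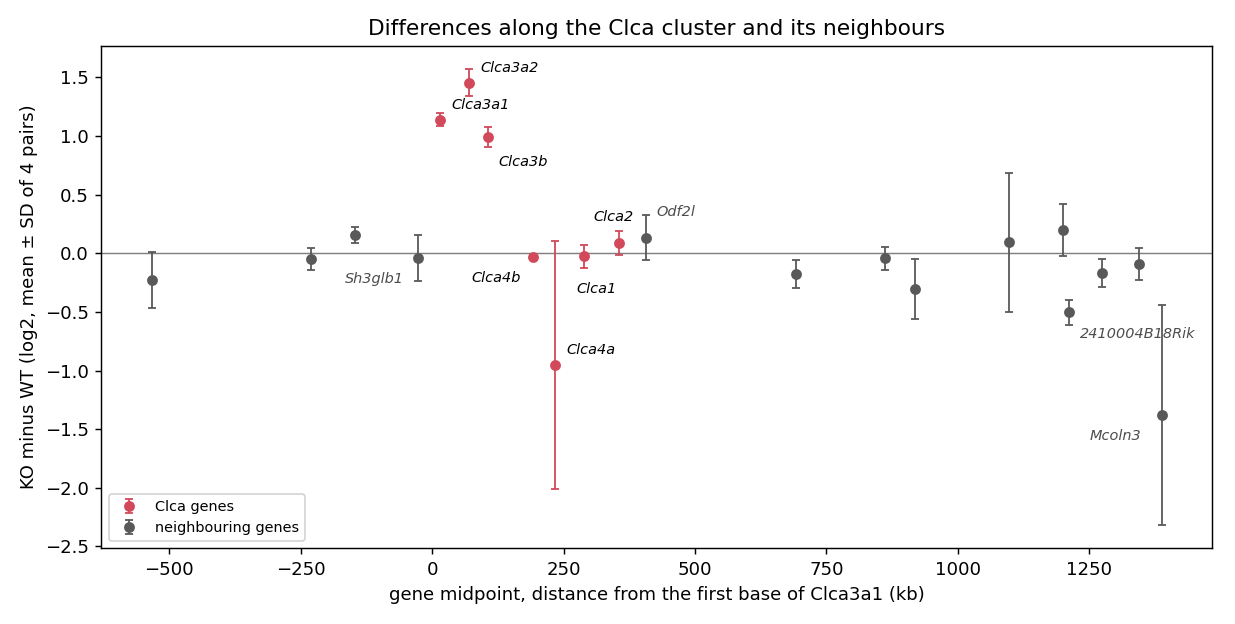
Mean knockout (KO) minus wild type (WT) difference ± SD of 4 pairs for the Clca genes and 14 neighbours, against the distance of each gene's midpoint from the first base of Clca3a1 in kb. The 3 Clca3 points stand near 1 to 1.5, Sh3glb1 beside them stands at −0.040, and Clca4b, next along, at −0.033.

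By the 4 within-pair differences, the named genes nearest to Clca3a1 were the serine protease gene Prss8 (Euclidean distance 0.253; differences 1.20, 1.40, 1.10 and 1.22), the transcription factor gene Tead1 (0.319) and the nicotinamide riboside kinase gene Nmrk1 (0.354). Nearest to Clca3a2 were the schlafen gene Slfn2 (distance 0.197; differences 1.45, 1.66, 1.28 and 1.49), the glycosyltransferase gene B3gnt7 (0.423) and Tnfaip3 (0.467), which encodes the NF-κB feedback inhibitor A20. These distances rest on 4 pairs and describe likeness of size as well as of pattern.

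Genes that share a cell type or a role with the family were taken from lists and tested in the whole-table fit. That fit called 3.16% of all probe sets higher and 2.7% lower. Goblet cell markers had 1 of 24 called higher by limma and 2 lower (4 and 3 at an unadjusted p under 0.05), with a median difference of 0.041. Their summed level spanned 16.02 to 16.07 in knockouts and 15.98 to 16.12 in wild types. Retnlb, which encodes the goblet cell protein RELMβ, rose by 0.87 ± 0.453 (limma adjusted p = 0.0368), though it lay under the background level on all 8 arrays. The transcription factor gene Creb3l4 (−0.55 ± 0.189, limma adjusted p = 0.0272) and the tryptase gene Tpsg1 (−0.39 ± 0.071, limma adjusted p = 0.0336) fell. The major secreted products named here for their role, after their values were seen, were not called. The mucin Muc2 had a difference of 0.078 ± 0.255 (limma adjusted p = 0.681) and the trefoil factor Tff3 of −0.025 ± 0.072 (limma adjusted p = 0.849). Spink4 was higher in all 4 pairs (0.25 ± 0.178, limma adjusted p = 0.136) and Zg16 lower in all 4 (−0.088 ± 0.046, limma adjusted p = 0.444).

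Chloride and bicarbonate transport genes had 2 of 29 called higher by limma and 3 lower (5 and 6 at an unadjusted p under 0.05). Their median difference was −0.05. The sodium-hydrogen exchanger gene Slc9a3 rose by 1.20 ± 0.510 (limma adjusted p = 0.0231). The anoctamin genes Ano6 (−1.17 ± 0.440, limma adjusted p = 0.0189), a scramblase and ion channel, and Ano10 (−0.56 ± 0.138, limma adjusted p = 0.0205) fell, as did the chloride-proton exchanger gene Clcn5 (−0.68 ± 0.171, limma adjusted p = 0.0158). The remaining call was the potassium channel subunit gene Kcne3 (0.51 ± 0.216, limma adjusted p = 0.0372), named after its value was seen. Ano1, the channel that human CLCA1 acts on, also named after its values were seen, had a mean of 8.28 in knockouts and 8.77 in wild types, a difference of −0.48 ± 0.520 (limma adjusted p = 0.157). Almost all of it lay in pairs 3 and 4, with differences of −0.01, −0.06, −0.93 and −0.94 in pairs 1 to 4.

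Type 2 cytokine response genes had 2 of 21 called higher by limma and 1 lower (2 and 6 at an unadjusted p under 0.05). Their median difference was −0.038, and 8 of them lay under background on all arrays, Il4 and Il5 among them. The IL-4 and IL-13 receptor subunit gene Il4ra rose by 0.87 ± 0.286 (limma adjusted p = 0.0170), Retnlb is also in this list, and the lipoxygenase gene Alox15 fell by 0.73 ± 0.412 (limma adjusted p = 0.0464) on the log2 scale, with 3 of its 8 values above background, all in wild types. Il13 itself, named for its known link to Clca1 after its values were seen, had a mean of 6.52 in knockouts and 6.86 in wild types (−0.34 ± 0.265, limma adjusted p = 0.113). Enterocyte markers had 0 of 23 called higher by limma and 5 lower (0 and 10 at an unadjusted p under 0.05), with a median difference of −0.22. The lactase gene Lct fell by 2.84 ± 1.38 (limma adjusted p = 0.0270), the purine enzyme gene Ada by 0.96 ± 0.371 (limma adjusted p = 0.0214), the peptide transporter gene Slc15a1 by 0.72 ± 0.382 (limma adjusted p = 0.0418) and the trehalase gene Treh by 0.53 ± 0.208 (limma adjusted p = 0.0337), all on the log2 scale. The fifth, named after its value was seen, was the amino acid transporter gene Slc6a19 (−0.49 ± 0.191, limma adjusted p = 0.0355).

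The 4 lists held 15 different called genes, and 1, 2, 8 and 2 of these kept their call without pair 1, 2, 3 or 4. Centring on housekeeping genes kept all 15 but called 4 goblet cell, 8 transport, 7 type 2 cytokine and 13 enterocyte genes lower, and the share of higher calls over all probe sets was 8.98% against 54.0%. The 10 housekeeping genes were not level themselves. Before centring their median difference was 0.196, and limma called 1 higher and 0 lower (4 and 0 at an unadjusted p under 0.05). 

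**Figure D4:**
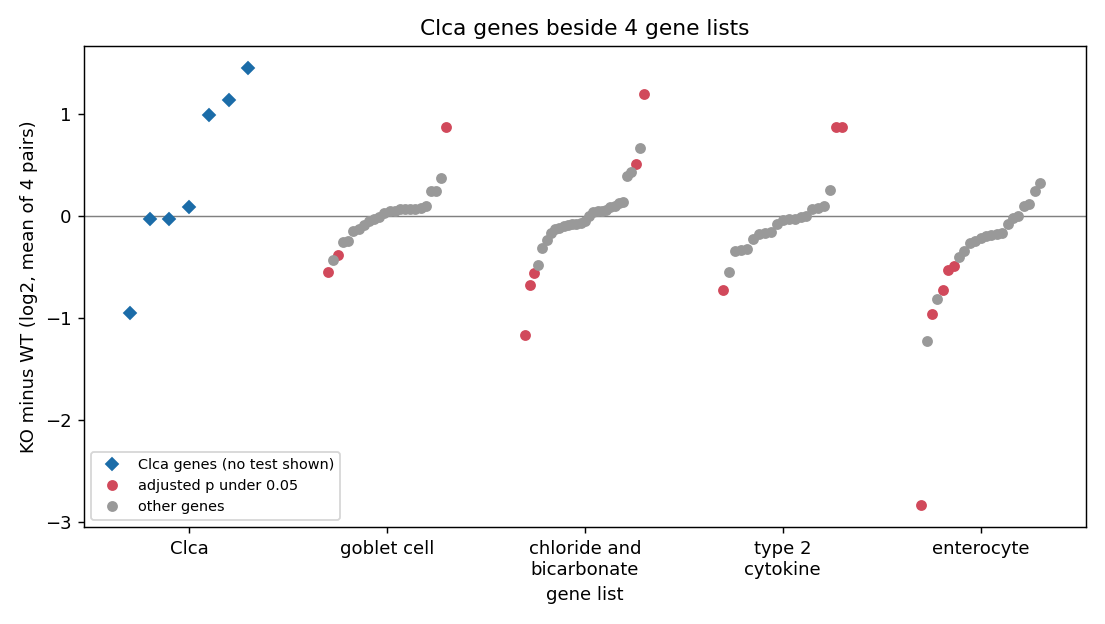
Mean knockout (KO) minus wild type (WT) log2 difference over 4 pairs for the 7 Clca genes (blue diamonds) and for each measured gene of 4 lists (red where the limma adjusted p is under 0.05, grey otherwise). The 3 Clca3 genes stand between 0.99 and 1.46, while most list genes lie near 0 and Lct stands at −2.84.

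Markers of other cells in the tissue were set beside the Clca3 differences, which were of like size in all 4 pairs. Of 13 endothelial and lymphatic markers limma called 0 (3 higher at an unadjusted p under 0.05), with medians of 0.23, 0.14, 0.27 and −0.12 in pairs 1 to 4 and a summed level of 10.7 to 11.1 in knockouts and 10.8 to 11.1 in wild types. Of 12 smooth muscle markers limma called 0 higher and 1 lower (0 and 1 at an unadjusted p under 0.05), with medians of 0.22, 0.02, −0.48 and −0.62, and a summed level of 13.7 to 14.3 in knockouts and 14.1 to 14.4 in wild types. Of 11 adipose markers limma called 1 higher (6 at an unadjusted p under 0.05), with medians of 1.66, 1.64, 0.16 and −0.16 and a summed level of 11.2 to 13.0 in knockouts and 10.8 to 12.5 in wild types. Lep and Cidea were under background on all arrays. Of 13 leukocyte markers limma called 1 higher and 2 lower (3 and 3 at an unadjusted p under 0.05), with medians of 0.23, 0.00, −0.13 and −0.23, and a summed level of 13.4 to 13.6 in knockouts and 13.3 to 13.6 in wild types. The part of these cells in the Clca3 differences was not tested.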

How the data were processed

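RNA from the duodenum of 4 knockout and 4 wild-type mice was hybridised to 8 arrays. The deposited values are log2 expression per probe set, and the submitters' processing notes name RMA and Transcriptome Analysis Console 4.0. The sources used here give no further settings and no step that would make pair means alike. Within each pair the deviations from the group means had correlations of −0.913 to −0.870, and the pairing comes from the labels, which number the sibling pairs.

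Fits were made with lmFit and eBayes of limma 3.58.1 (R 4.3.3) with the sibling pair as a block, Benjamini-Hochberg adjustment over 22206 probe sets, two-sided, at a threshold of 0.05. There were 3 residual degrees of freedom, 6.63 after variance moderation, so the number of arrays limits the precision. The fit was tested on simulated data. Of the probe sets, 19572 have 1 gene symbol, 0 several and 2634 none here. The RefSeq table held all 7 Clca gene IDs. A gene with several probe sets is represented by the one with the highest mean. A list's summed level is the log2 of its summed linear values.

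The members and lists were chosen with earlier results of these data known. The named genes are the 7 members, Nfkbia, up to 4 called genes of each of 4 lists with the largest change, and the 3 named genes nearest to each member with a mean difference of at least 1. The alternatives were the fit without the block, leaving out each pair, pairs 1 and 2 or 3 and 4 alone, quantile normalization, a filter on dim probe sets, arrays centred on 10 housekeeping genes, and sex or RNA integrity as a covariate. Comparisons of the upstream sequences between members are not reported here.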

Additional observations from a re-analysis of the deposited data

Results flagged for a closer look

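Of 69 sets of 4 values examined (knockouts, wild types and within-pair differences of 23 genes), 5 had 1 value far from the other 3, where chance gives about 1 in 20, and 0 of the 5 belonged to a Clca gene. All 5 came from Nfkbia, Lct and Slc15a1. The sets of a gene are not independent, so nothing is read from this count against 1 in 20. For Nfkbia the knockout of pair 3 stood apart (7.72, with the others at 6.65 to 6.82), and its gap took up 0.841 of the range. The same pair stood apart in the Nfkbia differences (−1.29 against −3.26 to −2.93, a gap of 0.832 of the range). For Lct the wild type of pair 4 did (12.30 against 10.88 to 11.03, a gap of 0.894). For Slc15a1 the knockout of pair 3 did (12.96 against 12.54 to 12.56, a gap of 0.952), and so did the difference of pair 3 (−0.15 against −0.94 to −0.88, a gap of 0.924). The siblings of these mice were displaced the other way. The wild type of pair 3 had 9.01 for Nfkbia (others 9.75 to 9.91) and 13.11 for Slc15a1 (others 13.42 to 13.49). The knockout of pair 4 had 7.48 for Lct (others 8.47 to 9.32). Pair means are alike in the deposited values, so which sibling departed cannot be told.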

How the results depend on the processing

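The differences of Clca3a1, Clca3a2, Clca3b and Clca4a kept their direction in all 12 other settings, which is a description, since the family was chosen by these values. Centred on housekeeping genes, the differences were 0.98, 1.29 and 0.83 for Clca3a1, Clca3a2 and Clca3b, −0.20 for Clca4b, −0.19 for Clca1 and −0.077 for Clca2, and that of Clca4b was −0.084 after quantile normalization. Leaving out 1 pair gave 1.12 to 1.16 for Clca3a1, 1.41 to 1.49 for Clca3a2, 0.97 to 1.02 for Clca3b, −0.040 to −0.023 for Clca4b, −1.19 to −0.43 for Clca4a, −0.073 to −0.0033 for Clca1 and 0.05 to 0.13 for Clca2.

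Nfkbia had −3.10 in pairs 1 and 2 alone (limma adjusted p = 0.0696), −2.21 in pairs 3 and 4 alone (adjusted p = 0.209) and −3.11 to −2.45 on leaving out 1 pair. Without the replicate block limma called 3622 probe sets higher and 4026 lower, with 4 and 4 goblet cell, 5 and 7 transport, 2 and 6 type 2 cytokine and 0 and 11 enterocyte genes. That fit takes the 8 arrays as independent. Sibling deviations from the group means had correlations of −0.913 to −0.870, so its calls overstate the evidence. Pairs 1 and 2 alone gave 0 and 0 (5278 at unadjusted p under 0.05), pairs 3 and 4 alone 1 and 25, and 0 of the 4 lists' genes in either. Housekeeping centring called 494 higher and 5006 lower, with 4, 8, 7 and 13 lower genes in the 4 lists in the same order. With sex added the counts were 231 and 233, and the lists had 0 and 1, 1 and 3, 1 and 0, and 0 and 1. With RNA integrity added they were 212 and 152, and the lists had 0 and 1, 1 and 1, 1 and 0, and 0 and 1. With the dim filter the goblet cell list had 0 higher and the type 2 list 1 higher and 0 lower, as Retnlb and Alox15 were not tested.

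Leaving out 1 pair gave 89 to 219 higher and 56 to 240 lower probe sets, 0 to 1 higher and 0 to 1 lower goblet cell genes, 0 to 1 and 0 to 2 transport genes, 0 to 1 and 0 to 1 type 2 genes, and 0 and 0 to 3 enterocyte genes. Fewer samples enter these fits, and causes were otherwise not tested. The block's effect on counts is given above, and it left every difference as it was.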
